A study of Mus musculus with 4 samples.

Results

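The Schlafen family on these arrays comprised 7 mouse genes (Slfn1, Slfn2, Slfn3, Slfn4, Slfn5, Slfn8 and Slfn9) out of 18193 genes measured. Every probe set that the array annotation assigns to one of these symbols was taken, which gave 12 of 45037 probe sets: 11 name 1 gene and 1 names both Slfn4 and Slfn3. The family was chosen by signals of these same 4 arrays, among them that of Slfn4, so its differences are given as a description and no test was run on them. RNA came from bone marrow-derived dendritic cells (BMDC) of male C57BL/6 mice aged 6 to 8 weeks, grown for 7 days with 500 U/ml GM-CSF, a cytokine that turns marrow progenitors into dendritic cells and macrophage-like cells. The live coculture held BMDC with 1D8, a mouse ovarian surface epithelial cell line, at 1 tumour cell per 5 BMDC. The irradiated coculture differed in that the 1D8 cells had received 50 Gy. The conditioned medium sample was BMDC in which 25% of the medium by volume was supernatant of 1D8 cells. Control BMDC had no contact with 1D8. Cells of all 4 samples were sorted with an antibody to CD80, a costimulatory surface protein, before RNA was extracted. Each condition had 1 biological sample and 1 array, so no value has a replicate error, no p-value can be given, and the words higher and lower describe these 4 arrays alone. How many animals gave the marrow is not given in the sources used here.

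Schlafen proteins share a domain that binds RNA in several members, and the longer members carry a helicase-like part as well. Slfn1 and Slfn2 are the short forms, Slfn3 and Slfn4 the intermediate forms, and Slfn5, Slfn8 and Slfn9 the long forms. The first members were found in developing mouse T cells and linked to growth arrest, several are induced by type I interferon, and Slfn4 is known from macrophages and from suppressive myeloid cells. The mouse genes form a cluster on chromosome 11.

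Values are MAS5 signals, a linear brightness per probe set made by the Affymetrix software, which had been scaled so that the mean after trimming 2% of probe sets at each end was 150.0 on every array. Signals under 44.3, the 50th percentile of all signals, were treated as dim and raised to that floor before ratios were taken, and 2-fold was the threshold for a difference. Of all genes 58.8% to 62.5% exceeded the floor on an array. Of the 7 Schlafen genes, 6 exceeded it on all 4 arrays at the brightest probe set and Slfn3 on none. As a yardstick for disagreement between probe sets, the SD of the log2 ratio between sets of the same gene was 0.42 for the live coculture over control. It was 0.38 for both the irradiated coculture and the conditioned medium over control. This SD compares probe sets read on the same arrays. It leaves out variation between cultures, sorts and arrays, so a ratio beyond it may still lie within the error of an unreplicated comparison. All 8 dendritic cell markers exceeded the floor on every array, among them Itgax (CD11c) with signals of 1921 with live 1D8 cells, 1387.7 with irradiated 1D8 cells, 2394.2 with conditioned medium and 2534 in the control. The first 3 comparisons below share the control array and are not independent of each other, and those against conditioned medium share that array.

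Slfn4, an intermediate form of macrophages and other myeloid cells, was higher on every array with tumour cells or their supernatant. Its signal (probe set 1427102_at) was 745.9 with live 1D8 cells, 968.6 with irradiated 1D8 cells and 1014.8 with conditioned medium, against 175.6 in the control. All 3 treated arrays lay far above the control and close to each other. The difference from the control was 4.25-fold for the live coculture, 5.52-fold for the irradiated coculture and 5.78-fold for conditioned medium. The largest of the ratios between treated arrays was 1.36-fold, between the live coculture and conditioned medium. In conditioned medium the ratio of Slfn4 to the control was the 4th highest of 11662 genes that exceeded the floor on 1 or both arrays, while 0.82% of 11836 genes had a higher ratio in the live coculture and 0.518% of 11773 in the irradiated coculture.

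Slfn1, a short form and the neighbour of Slfn4 on the chromosome, showed the same order of treated above control. Its signal (1418612_at) was 391.4 with live 1D8 cells, 663.1 with irradiated 1D8 cells and 556.3 with conditioned medium, against 139.2 in the control. It was 2.81-fold, 4.76-fold and 4.0-fold higher than the control on these arrays, in that order. Between the cocultures Slfn1 was 1.69-fold higher with irradiated than with live 1D8 cells (log2 ratio 0.76, against a probe set SD of 0.22 for this comparison), and 1.19% of 11915 genes had a higher ratio. A second probe set of Slfn1 (1447614_at) had signals of 17.0, 2.8 and 12.3 on the treated arrays and 9.8 in the control, under the floor throughout, and gives no ratio.

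The start regions of Slfn1 and Slfn4 are shown because these were the members that differed from the control on all 3 treated arrays. Both sequences are RefSeq's, build GRCm38.p6, from 250 bases before the annotated transcript start to 49 bases past its first base, read 5′ to 3′ on the gene's strand. Slfn1 lies at chr11:83116570-83116869 and Slfn4 at chr11:83174936-83175235, both on the plus strand. Capitals mark the longest run that the pair share, 15 bases, from -74 to -60 relative to the start of Slfn1 and from -73 to -59 relative to that of Slfn4.
Slfn1: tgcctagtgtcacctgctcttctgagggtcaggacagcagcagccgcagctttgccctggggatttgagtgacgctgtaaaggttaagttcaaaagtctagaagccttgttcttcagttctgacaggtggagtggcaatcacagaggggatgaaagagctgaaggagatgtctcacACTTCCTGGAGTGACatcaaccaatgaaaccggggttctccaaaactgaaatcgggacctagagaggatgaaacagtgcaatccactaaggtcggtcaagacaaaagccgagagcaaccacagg
Slfn4: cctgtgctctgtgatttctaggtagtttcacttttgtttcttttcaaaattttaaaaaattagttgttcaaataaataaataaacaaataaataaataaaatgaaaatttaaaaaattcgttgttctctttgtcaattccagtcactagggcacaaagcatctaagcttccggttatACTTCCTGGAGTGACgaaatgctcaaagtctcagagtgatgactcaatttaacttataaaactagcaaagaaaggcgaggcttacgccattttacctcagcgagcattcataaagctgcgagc
Of 32851 start regions of this length in the genome, 2 hold the 15-base run on either strand, those of Slfn1 and Slfn4. Over the whole window 42.9% of aligned columns were identical between the pair, within the range of all pairs other than Slfn8 with Slfn9 (41.9% to 49.4%). The run begins with the letters of the ETS core motif AGGAAGT read on the other strand, the core bound by ETS factors such as PU.1 of myeloid cells. This run was looked for after the signals had been seen, and a match of letters is not evidence that a factor binds there.

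**Figure D1:**
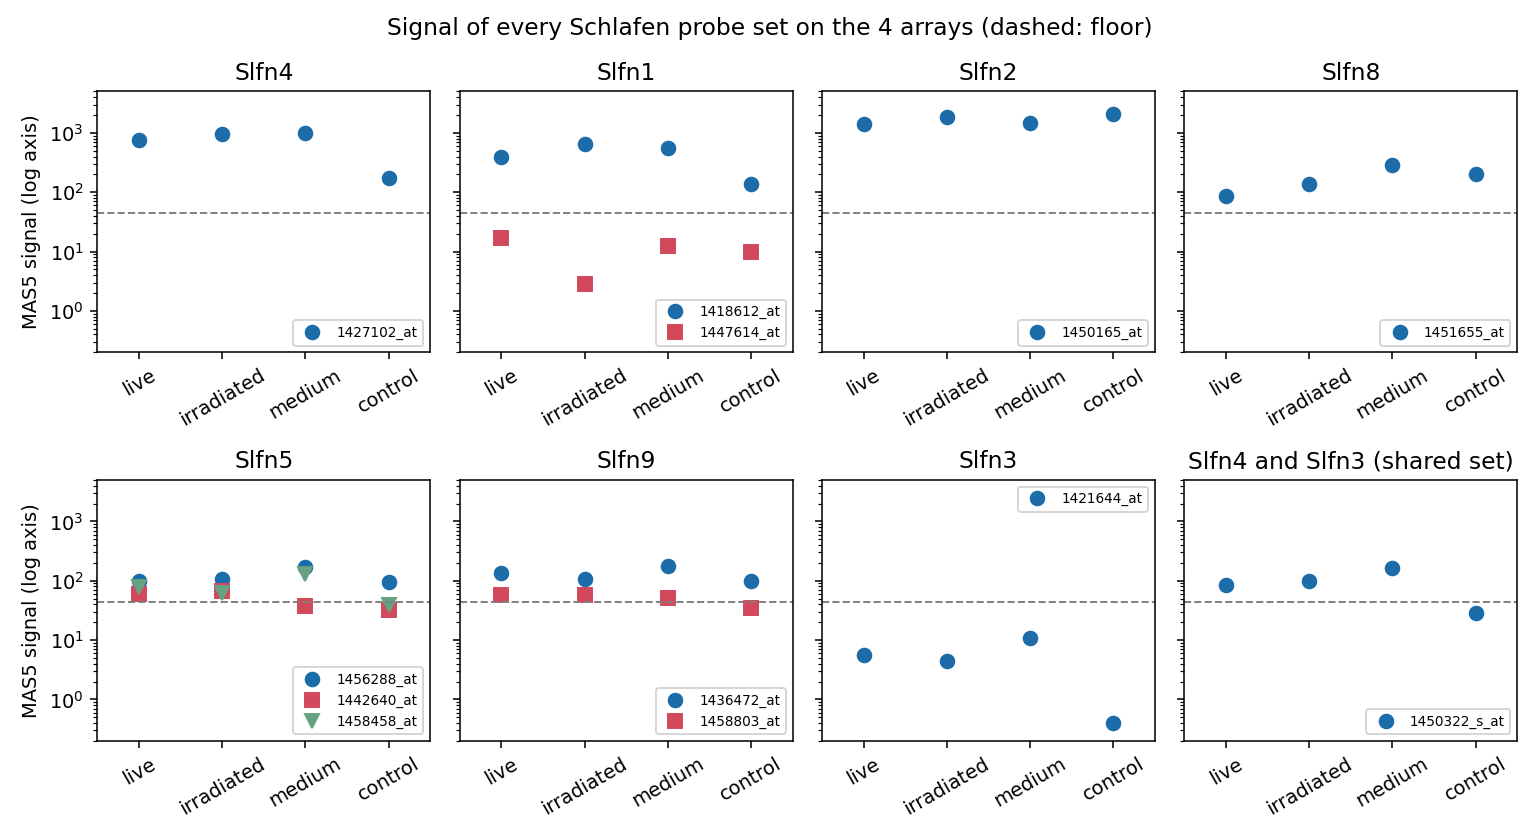
MAS5 signal on a log axis (vertical) of every Schlafen probe set on the 4 arrays (horizontal: live coculture, irradiated coculture, conditioned medium, control), 1 panel a gene and 1 marker shape a probe set, with the floor of 44.3 dashed. Slfn4 and the brighter Slfn1 set sit at 391.4 to 1014.8 on the treated arrays, above 139.2 and 175.6 in the control, while Slfn3 is under the floor on every array.

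Slfn2, the other short form, which keeps T cells and monocytes quiescent in mice, was bright on all arrays and was not 2-fold apart between any pair. Its signal (1450165_at) was 1395.3 with live 1D8 cells, 1890.8 with irradiated 1D8 cells and 1468.6 with conditioned medium, against 2053.7 in the control. All 3 treated arrays were below the control, by log2 ratios of -0.56, -0.12 and -0.48, the middle of which is smaller than the probe set SD of 0.38. Slfn2 lies directly beside Slfn1 on the chromosome, and the 2 short forms stood on opposite sides of the control in the live coculture and conditioned medium. In the irradiated coculture Slfn2 was near the control, with a log2 ratio of -0.01 after quantile normalization, while Slfn1 was above it.

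Slfn3, the other intermediate form, was not measured above the floor by its own probe set (1421644_at), with signals of 5.6, 4.5 and 11 on the treated arrays and 0.4 in the control. The probe set shared by Slfn4 and Slfn3 (1450322_s_at) had signals of 83.4 with live 1D8 cells, 97.3 with irradiated 1D8 cells and 165.0 with conditioned medium, against 28.6 in the control, which is under the floor. It was therefore at least 1.88-fold, at least 2.20-fold and at least 3.72-fold higher, and highest in conditioned medium as Slfn4 was. Which of the genes gave this signal cannot be told apart by that probe set.

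The start regions of Slfn2 and Slfn3 hold the same ETS letters as those of Slfn1 and Slfn4, although Slfn2 was not higher on the treated arrays and Slfn3 was not measured above the floor. Stretches of 40 bases around these letters are shown, on the plus strand of GRCm38.p6 at chr11:83065042-83065081 for Slfn2 and chr11:83191273-83191312 for Slfn3, with the ETS letters on the other strand in capitals.
Slfn2: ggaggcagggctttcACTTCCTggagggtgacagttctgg
Slfn3: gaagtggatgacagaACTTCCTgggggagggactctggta
The motif AGGAAGT, searched on both strands, occurred in 9.35% of all start regions and in those of 4 of the 7 Schlafen genes: Slfn1, Slfn2, Slfn3 and Slfn4. These 4 share the run acttcctgg, which 0.843% of start regions hold. Among genes over the floor, 3.51% of 1084 with an ETS match were at least 2-fold higher in the conditioned medium sample than in untreated BMDC, against 3.4% of 8978 without one.

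The long forms were ordered differently. In conditioned medium all 3 had their highest signal at the brightest probe set, and none of them was 2-fold higher than the control in either coculture. Slfn8 had a signal (1451655_at) of 85.0 with live 1D8 cells, 136.1 with irradiated 1D8 cells and 286.5 with conditioned medium, against 200.5 in the control. It was 2.36-fold lower in the live coculture, 1.47-fold lower in the irradiated coculture and 1.43-fold higher in conditioned medium, each relative to the control. Both cocultures were thus below the control and conditioned medium above it, and conditioned medium exceeded the live coculture 3.37-fold and the irradiated coculture 2.11-fold.

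Slfn9 is the member most like Slfn8 in its start region, and differed less. Its brighter probe set (1436472_at) had signals of 132.7 with live 1D8 cells, 107.7 with irradiated 1D8 cells and 173.8 with conditioned medium, against 97.5 in the control. Conditioned medium was 1.78-fold above the control (log2 ratio 0.83, against a probe set SD of 0.38) and 1.61-fold above the irradiated coculture. The dimmer probe set of Slfn9 (1458803_at) had 56.7, 58.0 and 51.4 on the treated arrays and 35.1 in the control, so it did not show conditioned medium as the highest.

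Slfn5, a long form induced by interferon, was measured by 3 probe sets. The brightest (1456288_at) had signals of 99.5 with live 1D8 cells, 107.1 with irradiated 1D8 cells and 171.4 with conditioned medium, against 94.1 in the control, and conditioned medium was 1.82-fold above the control, with both cocultures near it. Another (1458458_at) had 77.6, 63.0 and 128.0 on the treated arrays and 39.1 in the control, and was at least 2.89-fold higher in conditioned medium. The third (1442640_at) had 59.6 and 67.8 in the cocultures, 36.8 in conditioned medium and 32.1 in the control. That probe set goes against the other two, since it was under the floor in conditioned medium and above it in both cocultures.

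The start regions of the long forms are shown because they hold a motif that those of the short and intermediate forms lack, while lacking the ETS letters. They are RefSeq's, GRCm38.p6, at chr11:83020761-83021060 (minus strand) for Slfn8, chr11:82991781-82992080 (minus strand) for Slfn9 and chr11:82951852-82952151 (plus strand) for Slfn5. Capitals mark a match to the core of the interferon-stimulated response element (ISRE), GAAANNGAAA on either strand (the other strand in Slfn8 and Slfn9).
Slfn8: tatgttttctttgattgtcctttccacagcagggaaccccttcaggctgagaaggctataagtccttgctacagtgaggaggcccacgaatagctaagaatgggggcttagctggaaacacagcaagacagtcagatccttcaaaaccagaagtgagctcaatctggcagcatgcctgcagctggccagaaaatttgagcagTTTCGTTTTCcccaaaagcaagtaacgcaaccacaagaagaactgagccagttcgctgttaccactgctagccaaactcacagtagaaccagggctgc
Slfn9: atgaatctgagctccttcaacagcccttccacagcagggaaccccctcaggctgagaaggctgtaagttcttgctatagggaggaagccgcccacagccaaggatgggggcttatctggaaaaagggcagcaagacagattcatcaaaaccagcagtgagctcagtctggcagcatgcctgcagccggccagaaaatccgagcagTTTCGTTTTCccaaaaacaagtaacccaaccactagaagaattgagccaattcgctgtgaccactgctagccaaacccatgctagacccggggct
Slfn5: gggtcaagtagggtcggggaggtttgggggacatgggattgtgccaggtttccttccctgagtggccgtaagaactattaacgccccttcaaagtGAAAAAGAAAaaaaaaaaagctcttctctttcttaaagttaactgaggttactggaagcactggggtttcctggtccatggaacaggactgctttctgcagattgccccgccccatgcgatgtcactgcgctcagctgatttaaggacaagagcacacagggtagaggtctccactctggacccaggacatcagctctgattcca
Of the 7 Schlafen genes, 3 held the ISRE core, the 3 long forms, against 3.44% of all 32851 start regions and 15 of 28 interferon response genes with a start region. Relative to the start the match lies from -48 to -39 in Slfn8 and from -45 to -36 in Slfn9, with identical letters, and from -155 to -146 in Slfn5. Slfn8 and Slfn9 were identical in 80.5% of aligned columns. A second annotated start of Slfn8 holds the same match further upstream, from -136 to -127. The match in Slfn5 is followed by a run of adenines. Of the other motifs, also searched on both strands, the interferon gamma element TTCNNNGAA was found in none of the 7 (8.30% of all start regions), and the AP-1 element TGANTCA in Slfn4 alone of the members (7.81%). Of the 28 interferon response genes, 6 held the interferon gamma element, 7 the AP-1 element and 2 the ETS letters. None of these motifs overlaps another in the members' first windows. Over all genes above the floor, 4.46% of 381 with an ISRE match reached 2-fold higher in the conditioned medium sample relative to the control, against 3.37% of 9681 without one. For the live coculture over conditioned medium, 5.25% of genes with a match were at least 2-fold lower, against 1.54% without. The genes with a match include the long forms themselves and interferon response genes. In the same comparison the shares with and without a match were 3.38% and 1.56% for AP-1. They were 2.06% and 1.65% for the interferon gamma element, and 1.66% and 1.68% for ETS. A match is a description of letters only, and binding was not measured.

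**Figure D2:**
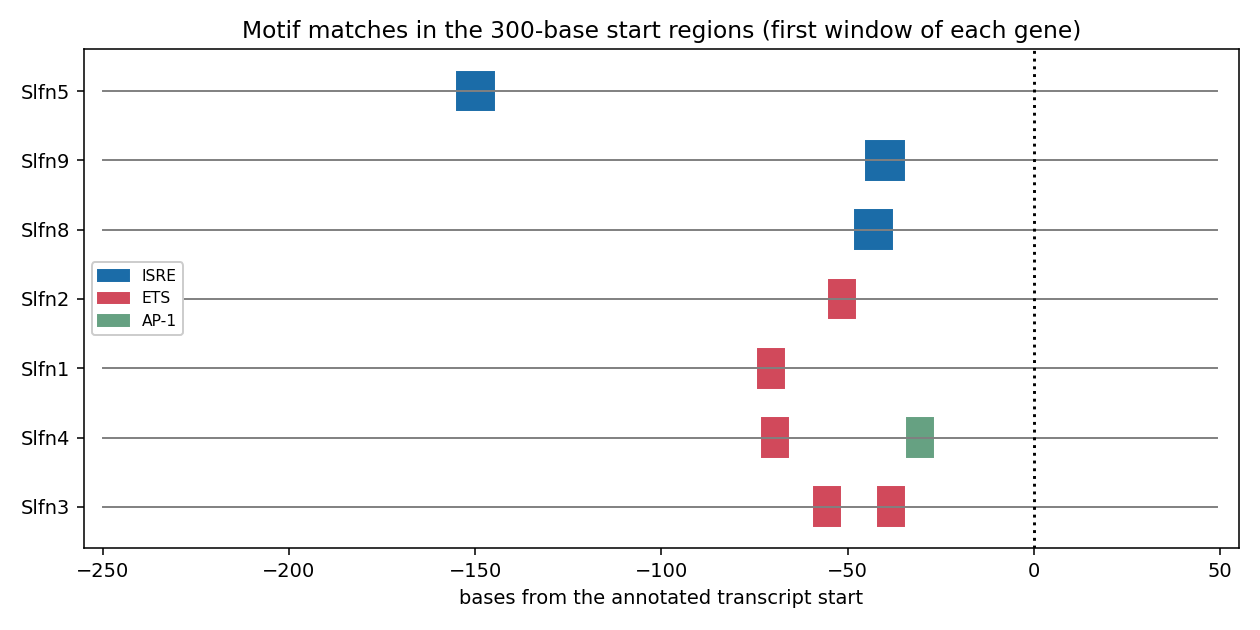
Positions of motif matches in the start region of each Schlafen gene, in bases from the annotated transcript start (horizontal), 1 line a gene in chromosome order. The ISRE core (blue) is in Slfn5, Slfn9 and Slfn8, the ETS core (red) in Slfn2, Slfn1, Slfn4 and Slfn3, and the AP-1 element (green) in Slfn4.

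Counted over the family, the live coculture was first set against the control. Slfn1 and Slfn4 were at least 2-fold higher, 2 of 7 members, where 3.36% of all genes were, and Slfn8 was at least 2-fold lower, 1 of 7, where 2.23% of all genes were. The median log2 ratio of the 6 members over the floor was 0.26, against 0.00 over 11836 genes. In the irradiated coculture the same 2 members were higher and none was lower, where 3.47% of all genes were higher and 2.25% lower, and the median of the members was 0.17 against -0.01 over all. In conditioned medium Slfn1 and Slfn4 were again the 2 higher members and none was lower, where 2.3% of all genes were higher and 1.41% lower, and the median of the members was 0.85 against 0.03 over all. Slfn1 and Slfn4 thus passed 2-fold on all 3 arrays, but since the family was chosen from these ratios, nothing is read from these counts.

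**Figure D3:**
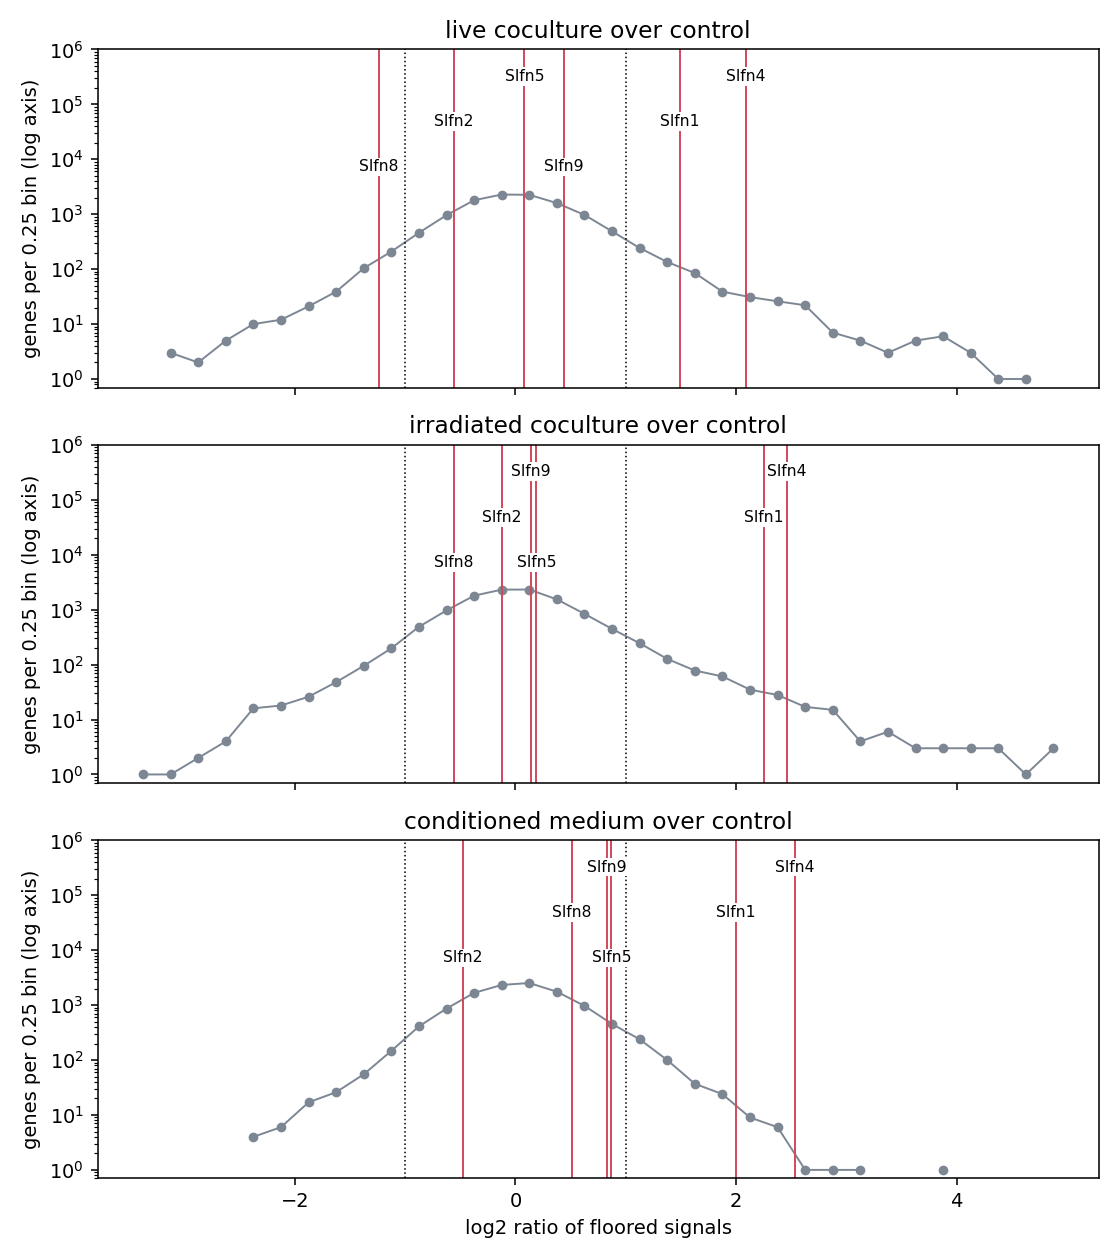
Number of genes over the floor (vertical, log axis) in bins of the log2 ratio of floored signals (horizontal) for the live coculture, irradiated coculture and conditioned medium over the control. Red lines mark the 6 Schlafen genes over the floor and dotted lines 2-fold. Slfn4 is the rightmost member in each panel (2.09, 2.46 and 2.53), and Slfn8 is left of 0 in the coculture panels only.

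The arrays with tumour cells were next set against conditioned medium, in which no tumour cells were added. Of the members over the floor none was higher in the live coculture than in conditioned medium and all 6 had ratios below 0. Only Slfn8 was 2-fold lower, 1 of 7, where 1.14% of all genes were lower and 1.75% higher. In the irradiated coculture Slfn8 was again the 1 member at least 2-fold lower than in conditioned medium, where 1.24% of all genes were lower and 1.95% higher. There the long forms and the rest parted at the brightest probe sets: log2 ratios were -1.07 for Slfn8, -0.69 for Slfn9 and -0.68 for Slfn5, and 0.36 for Slfn2, 0.25 for Slfn1 and -0.07 for Slfn4. These values of Slfn9 and Slfn5 exceed the probe set SD of 0.24 for this comparison without reaching 2-fold. The other probe sets did not all follow this split. The dimmer set of Slfn9 had 0.17, and the other sets of Slfn5 had -1.02 and at least 0.61. The set shared by Slfn4 and Slfn3 had -0.76. Between the irradiated and the live coculture no member was 2-fold apart, where 0.302% of all genes were higher and 0.368% lower. Slfn1 and Slfn8 came closest, with log2 ratios of 0.76 and 0.68, while Slfn9 had -0.30.

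Along the chromosome the annotation lists the genes as Slfn5, Slfn9, Slfn8, Slfn10-ps, Slfn2, Slfn1, Slfn4 and Slfn3, followed by Slfn14, which was not analysed here. The long forms lie at one end of the cluster and the short and intermediate forms at the other. Signals did not follow this division throughout, since Slfn2 was not higher than the control on any treated array and its neighbour Slfn1 was at least 2-fold higher on all 3. Slfn10-ps, a gene between Slfn8 and Slfn2 that is no member of the set, had signals of 104.2 with live 1D8 cells, 100.9 with irradiated 1D8 cells and 59.9 with conditioned medium, against 39.5 in the control. It was at least 2.35-fold and at least 2.28-fold higher in the cocultures and at least 1.35-fold higher in conditioned medium, so it resembled neither end. The antisense transcript Slfn5os, which overlaps Slfn5, had signals of 2.5 to 3.6 and was under the floor. The nearest measured genes outside the cluster, 4 protein-coding genes on the Slfn5 side and 3 past Slfn14, were under the floor on all 4 arrays except Rad51d, Nle1 and Ap2b1. None of these 3 was 2-fold apart from the control on the floored scale. Nle1 came closest, with signals of 86.2, 49.6 and 39.3 on the treated arrays and 77.3 in the control, where its conditioned medium signal is under the floor.

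**Figure D4:**
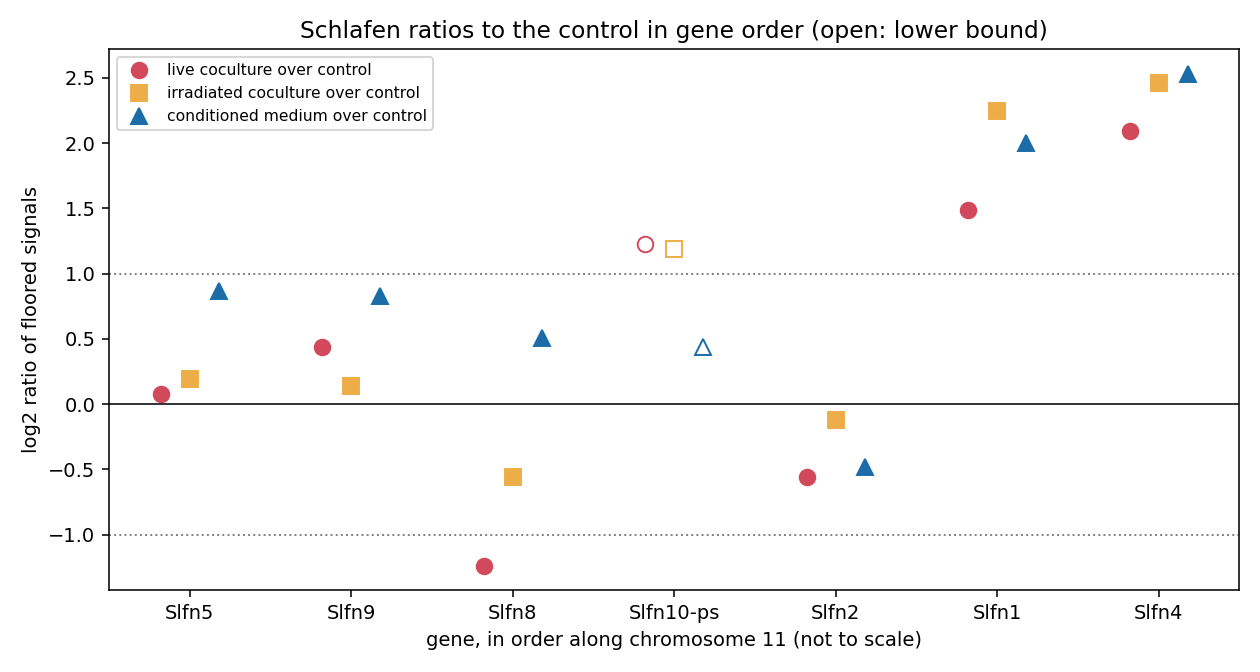
Log2 ratio of floored signals to the control (vertical) of the Schlafen genes over the floor and Slfn10-ps in their order along chromosome 11 (horizontal, not to scale), for the live coculture (circles), irradiated coculture (squares) and conditioned medium (triangles). Open markers are lower bounds and dotted lines mark 2-fold. For Slfn5, Slfn9 and Slfn8 the triangle is the highest marker, whereas for Slfn1 and Slfn4 all 3 markers lie above 1.

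Since several Schlafen genes respond to type I interferon, the family was set beside 40 interferon response genes, of which 36 were measured. In conditioned medium 11 of the 36 were at least 2-fold higher than the control and none was lower (median log2 ratio 0.59). Of all genes 2.3% were higher there and 1.41% lower. Ifit2, an antiviral protein gene, had signals of 51.9 with live 1D8 cells, 53.9 with irradiated 1D8 cells and 345.3 with conditioned medium, against 66.2 in the control. Irf7, a transcription factor that amplifies interferon production, had 268.7, 290.8 and 941.6 on the treated arrays and 287.3 in the control. Conditioned medium alone stood apart for both genes, whereas Slfn4 and Slfn1 were higher on all 3 treated arrays. In the live coculture no interferon response gene was higher and 2 were lower (median -0.45), where 6 were lower after quantile normalization and 4 after median centring. In the irradiated coculture likewise none was higher and 2 were lower (median -0.30). Of all genes 2.23% were lower in the live and 2.25% in the irradiated coculture. On those arrays Slfn4 had log2 ratios of 2.09 and 2.46 and Slfn1 of 1.49 and 2.25.

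Slfn8 had conditioned medium above and both cocultures below the control, an order that 21 of the 36 interferon response genes also had. This count used signals before the floor and asked for no smallest difference. The share of all genes with the order was not counted, so the 21 cannot be set against it. For the live coculture over conditioned medium, 19 of 36 interferon response genes were at least 2-fold lower and none higher (median -1.06), where 1.14% of all genes were lower. For the irradiated coculture over conditioned medium, 13 were lower and none higher (median -0.81), where 1.24% of all genes were lower. Rtp4, a chaperone of receptors that is induced by interferon, had signals of 198.9, 222.5 and 1007.4 on the treated arrays and 384.1 in the control. Oasl2, an antiviral gene of the oligoadenylate synthetase family, had 164.0, 199.8 and 743.5 on the treated arrays and 291.1 in the control. Both lay below the control in the cocultures and above it in conditioned medium, as Slfn8 did.

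**Figure D5:**
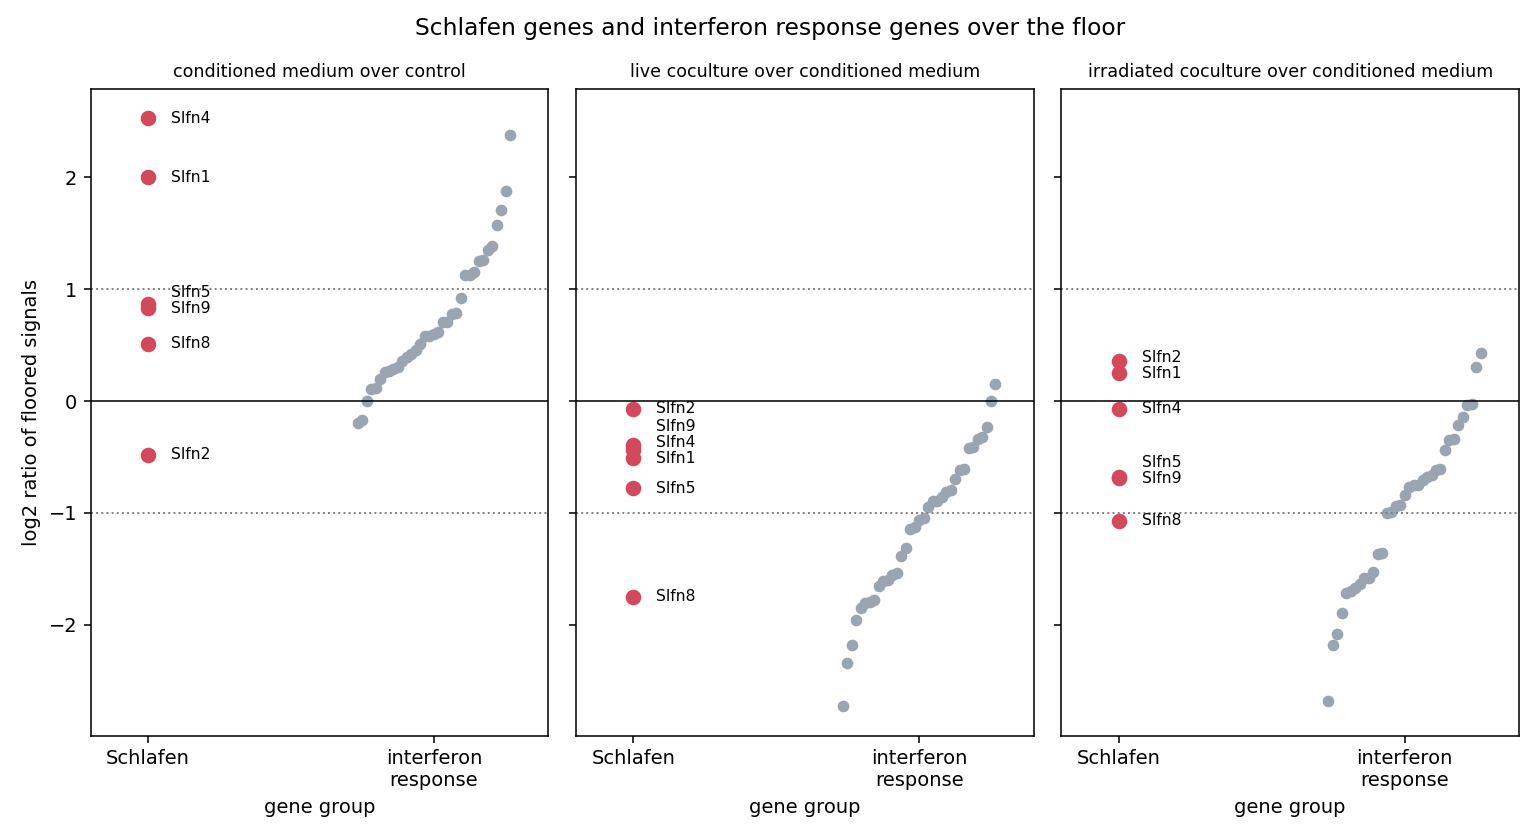
Log2 ratio of floored signals (vertical) for conditioned medium over control, live coculture over conditioned medium and irradiated coculture over conditioned medium, with the 6 Schlafen genes over the floor (red) left of the 35 interferon response genes over the floor on 1 or more arrays (grey, sorted). Dotted lines mark 2-fold. Slfn1, Slfn5, Slfn8 and Slfn9 fall within the range of the interferon response genes in every panel, Slfn8 at 0.51, -1.75 and -1.07. For conditioned medium over control Slfn4 lies above all interferon response genes (2.53) and Slfn2 below all of them (-0.48).

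Other interferon lists and a proliferation list gave the following counts. Of all genes, 3.36% were at least 2-fold higher than the control and 2.23% lower with live 1D8 cells. The shares were 3.47% and 2.25% with irradiated 1D8 cells, and 2.3% and 1.41% with conditioned medium. With lists this short, counts of 1 or 2 are not read as results. Of 9 measured interferon-inducible GTPases and guanylate-binding proteins no member reached 2-fold on any treated array, with medians of -0.57 with live 1D8 cells, -0.27 with irradiated 1D8 cells and 0.27 with conditioned medium. Of 11 RNA-targeting antiviral effectors, a group that partly overlaps the interferon response list, none was higher or lower in the live coculture, 1 was lower in the irradiated coculture and 2 were higher in conditioned medium (medians -0.54, -0.42 and 0.60). Of 17 genes of interferon receptor signalling, live coculture had 1 higher and 1 lower, irradiated coculture 1 higher and none lower, and conditioned medium 2 higher and none lower. Of 7 genes with probe sets that encode type I or type III interferons, none exceeded the floor with live 1D8 cells, 1 with irradiated 1D8 cells, none with conditioned medium and 2 in the control, so this list gives almost no ratios. Of 11 proliferation genes none was 2-fold apart from the control in the cocultures and 2 were higher in conditioned medium (medians 0.49, -0.10 and 0.67).

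Markers of other cells were read beside the Schlafen values, because in bulk RNA fewer cells of a type and less RNA per cell cannot be told apart. Counts of markers past 2-fold are to be read beside the shares of all genes given above. Of 8 epithelial and mesothelial markers, 5 reached 2-fold higher with live 1D8 cells, 6 with irradiated 1D8 cells and none with conditioned medium, relative to the control, with summed signals of 2600, 3180 and 678 against 414 in the control. Krt19, a keratin, had signals of 569.7 and 767.4 in the cocultures, 22.2 in conditioned medium and 8.6 in the control. In conditioned medium, where Krt19 was under the floor, 4 of the 8 markers exceeded it, against 3 in the control. On the floored scale 3 of the 8 had ratios to the control above 0 in conditioned medium and 1 below. Cdh1 had 338.0 there and 189.5 in the control. On that array Slfn4 was above, and Slfn1 between, its own signals of the cocultures. The part of the epithelial signal in the values of Slfn4, Slfn1 and Slfn8 was not tested. Of 9 measured neutrophil markers, 5 were 2-fold lower with live 1D8 cells, 5 with irradiated 1D8 cells and 4 with conditioned medium, relative to the control, and none was higher. Their summed signals were 3470, 4110 and 7800 on the treated arrays and 7850 in the control. The granule protease gene Ctsg had 28.4, 14.3 and 62.0 on the treated arrays and 232.8 in the control, opposite in direction to Slfn4. In conditioned medium 1 of the 9 had a ratio to the control above 0 and 7 below. The 1 above was the bright Mmp8, at 6901.5 in conditioned medium against 5677.4 in the control. These counts cover the listed markers only. Padi4, Fpr2 and Ltb4r1, described below among the genes nearest to Slfn4, are not on that list. The part of the neutrophil markers in the Slfn4 values was not tested.

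Lymphocyte markers bear on Slfn1 and Slfn2, which are also expressed in T cells. Of 7 measured T cell markers 2 exceeded the floor with live 1D8 cells, 3 with irradiated 1D8 cells, 2 with conditioned medium and 2 in the control, with summed signals of 434, 572 and 608 against 342. Of the defining genes, Cd3d and Cd3g were under the floor on all 4 arrays, with signals of 4.6 to 8.4 and 14.4 to 33.2. Another defining gene, Cd3e, exceeded the floor in the irradiated coculture, at 58.0, and was under it on the other arrays. The irradiated coculture was also the array with the highest Slfn1 signal. The markers over the floor everywhere were Cd8a, at 114.5 to 125.9, and Zap70, at 247.1, 352.9 and 407.9 on the treated arrays against 157.8 in the control. Of 3 natural killer cell markers at most 1 exceeded the floor on an array, and of 3 B cell markers 2 did on each treated array and 3 in the control (summed signals 153, 156 and 191 against 234). Of 5 monocyte and macrophage markers none was lower and 1 was higher on each treated array, Cd14 in both cocultures and Ccr2 in conditioned medium. Cd14 had 5615.1, 7822.5 and 2311.2 on the treated arrays against 2258.3 in the control. Ccr2 had 675.6, 701.3 and 1839.8 against 803.8. In each coculture 3 of the 5 had ratios to the control below 0, and in conditioned medium 1 did. Of 3 plasmacytoid dendritic cell markers none was 2-fold apart from the control. Of the dendritic cell markers, live coculture had 1 higher and 3 lower, irradiated coculture 2 higher and 2 lower, and conditioned medium 1 higher and none lower. Cd80, whose product was used for the sort, was higher on each of the 3. The summed signals of all 8 were 5430, 5320 and 9580 on the treated arrays against 10100 in the control. In each coculture 4 of the 8 had ratios above 0 and 4 below, and the lower sum there goes with the bright H2-Eb1, at 1347.5 and 1652.9 in the cocultures, 3527.6 in conditioned medium and 4244.1 in the control. The part of these markers in the Schlafen values was not tested.

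The genes most like each member were taken from 9540 genes over the floor on all 4 arrays, by the Euclidean distance of log2 signals after each gene was centred on its mean of the 4 arrays. This ranks likeness over 4 points only. For Slfn4 the nearest were Ifitm6, of the interferon-induced transmembrane family (distance 0.42), Padi4, an enzyme that citrullinates histones (0.43), Ltb4r1, a leukotriene B4 receptor (0.48), Fpr2, a formyl peptide receptor (0.55), and Golph3l (0.56). For Slfn1 they were Ltb4r1 (0.10), Fpr2 (0.29), Ifitm6 (0.34), Golph3l (0.35) and Arrdc3 (0.41), so 4 of the 5 names were shared with Slfn4. Ltb4r1 had signals of 267.8 with live 1D8 cells, 461.0 with irradiated 1D8 cells and 358.9 with conditioned medium, against 89.8 in the control, which is the order of Slfn1. Ifitm6 had 736.6, 903.9 and 943.5 on the treated arrays and 232.7 in the control, which is the order of Slfn4. The other probe set of Golph3l had log2 ratios to the control of 0.44, 1.02 and 0.41, lower than the 1.67, 2.05 and 1.74 of the set used. For Slfn8 the nearest were Fgl2 (0.16), Ifi27l2a (0.17), Mxd4 (0.18), Mylip (0.19) and Sftpb (0.24). Ifi27l2a, an interferon-induced gene, had signals of 383.8, 632.8 and 1367.1 on the treated arrays and 1054.7 in the control. The other probe set of Fgl2 did not show this order, with 152.4, 186.5 and 427.8 on the treated arrays and 149.3 in the control. Of the 3 other probe sets of Mxd4, 1 had the order with smaller differences, at 63.9, 63.0 and 81.5 on the treated arrays and 67.4 in the control.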

How the data were processed

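RNA of 4 samples was measured on 1 Affymetrix mouse array each. The deposited values are MAS5 signal intensity per probe set, a linear scale, made by the authors with GCOS 1.4 and MAS5, per the submitters' processing notes. The scaling target, detection calls and filters are not given in the sources used here. Because MAS5 takes off mismatch signal, ratios between dim probe sets are noisy. Precision is limited by the number of arrays.

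The table held 45101 probe sets, less 64 controls. Of these, 34945 named 1 gene, 932 several and 9160 were unlisted in the annotation. Symbols were matched through Entrez IDs to RefSeq (GRCm38.p6) for 34741 probe sets. Each of 18193 genes was represented by the probe set brightest on average (log2 scale). Signals were floored at the 50th percentile (44.3) and compared as log2 ratios, with no test. Alternatives were floors at the 25th (12.9) and 75th (155.6) percentiles, quantile normalization, median centring, the mean over probe sets and a 3-fold threshold. The spread between probe sets is the SD from the median variance of the log2 ratio over genes with exactly 2 sets above the floor. Promoter windows were aligned globally with Biopython 1.88, other steps used Python 3.11.15, and the counting was tested on simulated data.

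Genes named are every member, the other Schlafen symbols, up to 4 genes of each list with the largest ratios past 2-fold, and the 5 nearest patterns of each member that was 2-fold apart from the control. The neighbours on the chromosome and the cell markers were named for their place or role. The members and lists were chosen with earlier results of these data known, and the motifs were chosen after the signals were seen.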

Additional observations from a re-analysis of the deposited data

Results flagged for a closer look

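Slfn8 drew a closer look because the arrays with tumour cells and the array with their supernatant stood on opposite sides of the control. Its log2 ratio to the control was -1.24 in the live coculture and -0.56 in the irradiated coculture, but 0.51 in conditioned medium. The control is shared by these ratios and the difference between them was not tested. The direct ratios between arrays were -1.75 for the live coculture over conditioned medium and -1.07 for the irradiated coculture over conditioned medium. Slfn8 has 1 probe set, so no second set of the gene can be read beside it.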

How the results depend on the processing

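Of 173 alternative values of single members' log2 ratios, 168 kept their direction and side of 2-fold or had neither value past 2-fold, 5 fell short of 2-fold, and none of those past 2-fold was reversed. Slfn4 was at least 2-fold higher than the control on all 3 treated arrays under both other floors and both scalings, with log2 ratios from 1.96 to 2.53, all past 3-fold too. Averaging over probe sets is no alternative for Slfn4, which has 1 probe set of its own, and the set shared with Slfn3 gives a bound of 1.88-fold in the live coculture. Averaging over probe sets brought the log2 ratio of Slfn1 to 0.75 with live 1D8 cells and to 1.0 (just under 2-fold) in conditioned medium, shrunk by construction because its second set is under the floor, and left 1 member (Slfn4) at least 2-fold apart in conditioned medium. With the floor at 155.6, Slfn8 had log2 ratios of -0.37 for the live coculture over control and -0.88 for either coculture over conditioned medium, because its coculture signals lie under that floor, and 0 members were then 2-fold apart between either coculture and conditioned medium. At 3-fold, 1 member (Slfn4) was apart in the live coculture over control and 0 in the irradiated coculture over conditioned medium. The small differences of Slfn5 in the live coculture (0.08 as deposited) and Slfn9 in the irradiated coculture (0.14) had the opposite sign after quantile normalization (-0.15 and -0.02), so no direction is given for them. Scaling also moved the share of higher among all calls. For the live coculture over control it was 60.1% as deposited, 49.8% after quantile normalization and 46.7% after median centring, for conditioned medium over control 62.1%, 45.6% and 42.4%, and for the irradiated over the live coculture 45.1%, 53.6% and 60.0%. The floor also moved counts over all genes: for the live coculture over control 612 genes were higher, 1463 with the floor at 12.9 and 270 at 155.6, and for conditioned medium over control the counts were 419, 1089 and 170. The median log2 ratio of genes over the floor on all 4 arrays, a smaller set than that over the floor on either array, moved from -0.04 to -0.17 with centring for the live coculture over control and from 0.00 to -0.11 for conditioned medium over control. Counts of interferon response genes moved over 1.5 times in 13 of 36 alternative values, among them those lower in the live coculture, 2 as deposited, 6 after quantile normalization and 4 after median centring.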
